A study of Mus musculus with 4 samples.

Results

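EpCAM is a surface glycoprotein of epithelial cells, and the comparison described here is the step from EpCAM-negative to EpCAM-positive cells among mouse embryonic fibroblasts (MEFs) that already held both Oct4 and Klf4 while being reprogrammed. It used 2 of the 4 arrays of the series, the Oct4+Klf4+EpCAM+ fraction and the Oct4+Klf4+EpCAM-negative fraction, 1 array a side, and it covered 18193 mouse genes. The other 2 arrays held the Oct4-negative fraction and the Oct4+ Klf4-negative fraction, and their levels are given beside those of the pair. The arrays were Affymetrix mouse expression arrays of 45101 probe sets, and each value is a log2 RMA intensity (RMA is the background correction, quantile normalization and summary of the probes of a set), so that a difference of 1 is 2-fold.

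The labels name the cells by 3 stained proteins and give no day of reprogramming, no factor set or way of delivery, no strain and no number of animals. All 4 fractions were fixed, permeabilized and stained before the sort, their RNA was taken with a kit made for fixed tissue (RecoverAll), and it was amplified by a whole-transcriptome kit for very small inputs (Ovation Pico WTA) and labelled with biotin. With 1 array a side there is no error between samples and no test: the words higher and lower are kept for genes at least 2-fold apart in the pair whose brighter level reached the floor of 4.53, the median of all values on the 4 arrays. The only check within the data was whether other probe sets of the same gene agreed. In a sorted population, fewer cells with a transcript and less of it in each cell cannot be told apart.

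EpCAM joins neighbouring cells without being a cadherin, and it binds claudin-7 in the lateral membrane of epithelial cells. Fibroblasts lack it and hold a mesenchymal set of genes, with vimentin filaments, N-cadherin, fibrillar collagens and the repressors ZEB1, ZEB2, SNAI2 and TWIST1. Reprogramming of fibroblasts passes through a mesenchymal-to-epithelial transition in which E-cadherin, EpCAM, keratins and tight-junction proteins appear, and ZEB and SNAI proteins are known to bind E-boxes in promoters of such genes.

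The labels were checked first on the transcripts of the stained proteins. Epcam had levels of 4.63 in Oct4-negative cells, 5.20 in Oct4+ Klf4-negative cells, 6.54 in the EpCAM-negative fraction and 9.52 in the EpCAM+ fraction, a 7.91-fold difference between the last pair. Its second probe set lay 2.35 higher on the log2 scale. The EpCAM-negative fraction was thus not at the bottom of the Epcam range, since the Oct4-negative and the Oct4+ Klf4-negative fractions had lower values. Pou5f1, the gene of Oct4, stood at 11.66 and 11.70 in the EpCAM-negative and EpCAM+ fractions. Klf4 stood at 10.20 and 10.60 in the same order, a difference of 0.39 in the brighter of its 2 probe sets, so by these sets the pair differed by far less than 2-fold in both sorted factors. The other Klf4 set went against the Klf4 labels, with 6.95 in Oct4-negative, 5.69 in Oct4+ Klf4-negative, 2.67 in EpCAM-negative and 3.20 in EpCAM+ cells, below the floor in both fractions labelled Klf4+. The Oct4-negative fraction, whose label gives no Klf4 status, had 7.32 in the brighter set. Myc, a proliferation regulator often used as a reprogramming factor, had 9.93 and 10.08. Sox2 did not exceed 3.15 and Nanog did not exceed 2.67 on any array, both far below the floor.

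Promoter sequences are shown for Epcam, for the leading gene Rab25, for Cldn4 and, on the lower side, for Vim, as examples of an E-box that was more frequent among the promoters of the higher genes. They do not stand for every leading gene: of the 25 largest genes a side, 15 higher and 20 lower had a promoter in the table, and 8 of those 15 and 4 of those 20 held the motif. Prom2 and Cldn7 lacked it, and Scg5, Gda, Mmd and Slc38a5 held it. The motif searched was CACCTG on both strands, the E-box known to be bound by ZEB and SNAI proteins, and it is in capitals below as CACCTG or, on the other strand, as CAGGTG. The window runs from 250 bases before to 50 bases after the gene's start in RefSeq on GRCm38.p6, 300 bases in all, read 5′ to 3′ on the gene's strand. The places are chr17:87635729-87636028 (plus strand) for Epcam, chr3:88548230-88548529 (minus strand) for Rab25, chr5:134946885-134947184 (minus strand) for Cldn4 and chr2:13574061-13574360 (plus strand) for Vim.
Epcam: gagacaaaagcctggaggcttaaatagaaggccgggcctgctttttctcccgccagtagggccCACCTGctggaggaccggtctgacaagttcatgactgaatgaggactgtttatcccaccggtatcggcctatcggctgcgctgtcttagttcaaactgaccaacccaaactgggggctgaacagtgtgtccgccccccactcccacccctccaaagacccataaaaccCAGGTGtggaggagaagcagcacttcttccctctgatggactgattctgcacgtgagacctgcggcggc
Rab25: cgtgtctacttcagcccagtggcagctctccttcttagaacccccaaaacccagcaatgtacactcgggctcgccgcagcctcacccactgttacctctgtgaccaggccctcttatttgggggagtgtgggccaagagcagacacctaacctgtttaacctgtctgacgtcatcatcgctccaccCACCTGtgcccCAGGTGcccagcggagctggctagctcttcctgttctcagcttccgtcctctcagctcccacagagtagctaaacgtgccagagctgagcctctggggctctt
Cldn4: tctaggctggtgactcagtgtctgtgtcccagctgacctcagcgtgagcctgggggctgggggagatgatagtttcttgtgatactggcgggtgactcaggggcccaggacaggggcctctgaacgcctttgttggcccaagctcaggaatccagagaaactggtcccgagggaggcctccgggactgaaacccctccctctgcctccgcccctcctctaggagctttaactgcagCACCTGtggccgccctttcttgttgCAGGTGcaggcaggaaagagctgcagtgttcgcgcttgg
Vim: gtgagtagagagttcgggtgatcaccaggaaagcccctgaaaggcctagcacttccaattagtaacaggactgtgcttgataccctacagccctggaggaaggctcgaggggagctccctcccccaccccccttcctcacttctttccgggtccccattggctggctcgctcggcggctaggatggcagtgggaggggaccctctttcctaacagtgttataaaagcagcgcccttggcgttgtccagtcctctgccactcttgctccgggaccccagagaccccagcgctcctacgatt

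Epcam, Rab25 and Cldn4 each held 2 matches and Vim held 0. In Epcam the nearer match ended 13 bases before the start, and in Rab25 both matches lay 47 and 58 bases before it. In Cldn4 one match ended 8 bases before the start and the other began 12 bases into the transcript. Of the 355 genes higher in EpCAM+ cells, 256 had a promoter in the RefSeq table, and 108 of these (42.2%) held the motif. Of the 204 lower genes, 157 had one, and 19 (12.1%) held it. Among the 8834 measured genes with a promoter the share was 17.5%, and among all 27025 promoters of the table it was 20.0%.

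Where a gene has several listed starts, its first listed promoter was used, as for Cldn7, whose first promoter held 0 matches. With any listed start counted, the shares were 47.7% of the higher genes and 17.8% of the lower genes. Other E-boxes, chosen for comparison after these values were seen, differed less. CAGCTG lay in 22.7% of the higher, 15.9% of the lower and 14.3% of the measured promoters, and CACGTG in 6.64%, 6.37% and 10.6%. Mean GC content was 60.3% in the higher, 59.4% in the lower and 61.5% in the measured promoters. The motif AACNGGTT, known to be bound by grainyhead-like factors, was in 2.34% of the higher and 1.79% of the measured promoters, and CACCC, the core bound by KLF and SP factors, in 71.9% and 63.0%. All motifs were searched on both strands, and a match of the latter motifs can meet one of CACCTG at its edge but cannot contain it. A match is a run of letters and not a measured binding site.

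**Figure D1:**
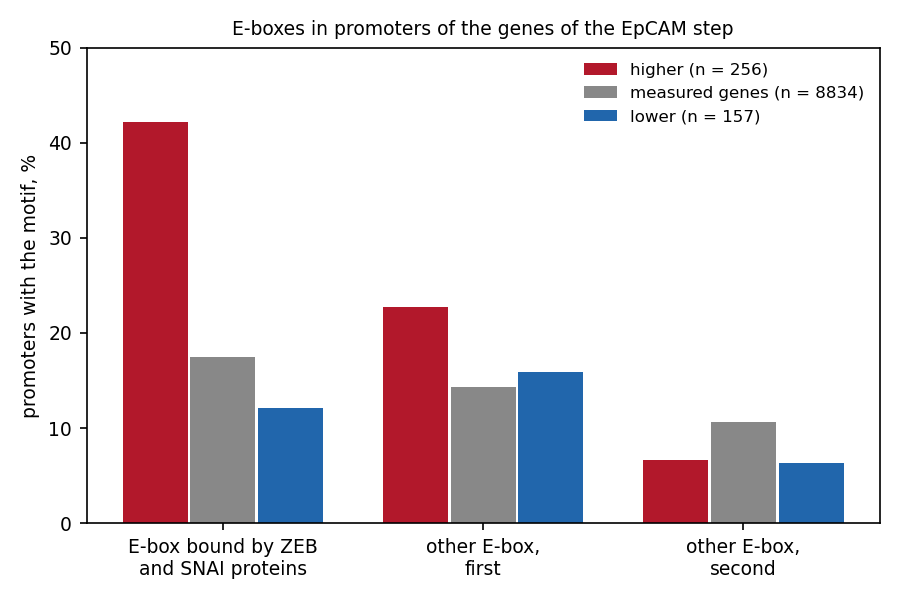
Share of promoters (300 bases around the start) that hold each of 3 E-boxes, for genes higher in EpCAM+ cells (red), all measured genes (grey) and genes lower (blue); the vertical axis is in percent. The first E-box stands at 42.2% in the higher genes against 17.5% and 12.1%, and the other E-boxes lie closer together.

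Over the whole series, each array's median was between 4.49 and 4.55, and values ran from 1.31 to 14.44. The signal of the 3′ probe set minus that of the 5′ probe set was 1.04 and 0.97 for Gapdh and -0.06 and -0.07 for Actb in the EpCAM-negative and EpCAM+ fractions, so this sign of RNA quality was alike in the pair. Of the 18193 genes, 10833 reached the floor on either array of the pair and are called measured. The 17 measured ribosomal protein genes had a median difference of -0.04 and the 14 housekeeping genes one of -0.08, with none past 2-fold in either list.

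Within Oct4+Klf4+ cells, all 5 measured simple keratins, 10 of 14 epithelial regulators and 9 of 16 desmosome and hemidesmosome genes were higher in EpCAM+ than in EpCAM-negative cells. On the other side, 9 of 20 mesenchymal regulators and 18 of 41 matrix genes were lower. Of the 10833 measured genes, 355 were higher (3.28%) and 204 lower (1.88%) in the EpCAM+ fraction. The median difference over all measured genes was 0.001, and 9165 of them (84.6%) lay within 0.5 log2. The extremes were uneven: 81 genes were at least 4-fold higher and 28 at least 4-fold lower, and 8 and 3 were at least 8-fold. The first and last percentiles of the difference were -1.34 and 1.81. Across measured genes, which are not independent replicates, the correlation of the 2 arrays was 0.961.

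**Figure D2:**
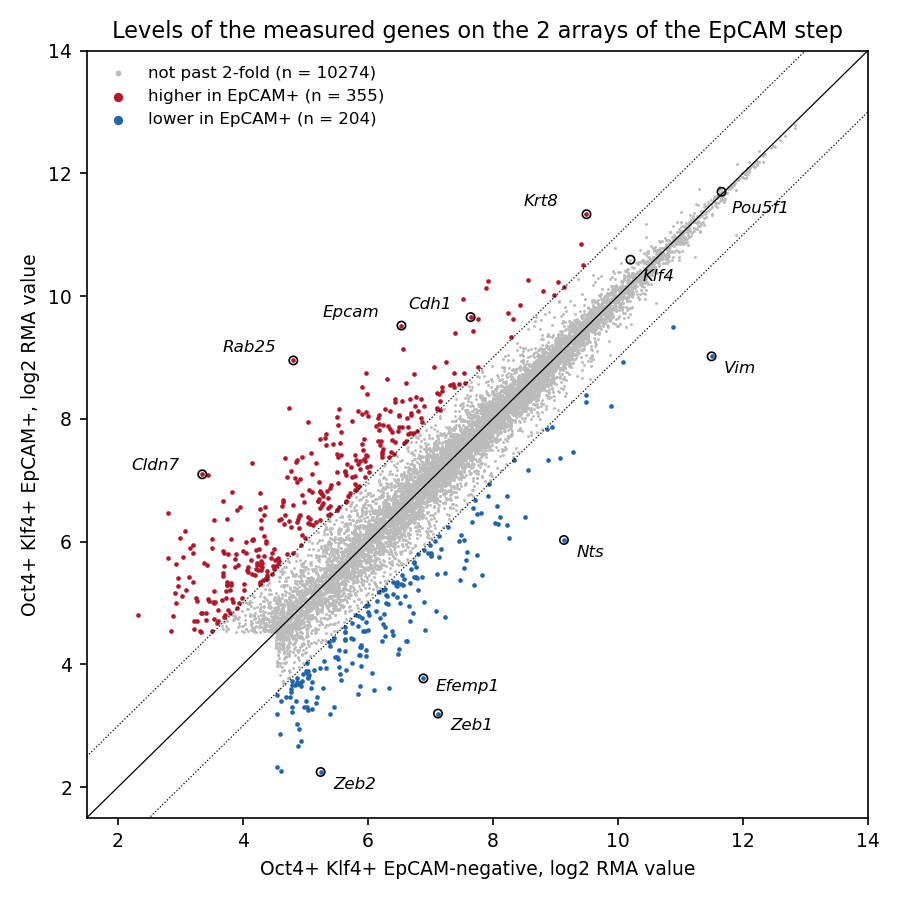
Level of each of the 10833 measured genes in EpCAM-negative cells (horizontal) and EpCAM+ cells (vertical), both as log2 RMA values, 1 array each; dotted lines mark 2-fold and colours mark the 355 higher and 204 lower genes. Pou5f1 and Klf4 lie inside the dotted lines, Rab25, Cldn7 and Epcam far above and Zeb1, Efemp1 and Zeb2 far below them.

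The floor shapes both counts, because a gene that is dim on one array enters only through the other. In 135 of the 355 higher genes the EpCAM-negative level was below the floor, and in 93 of the 204 lower genes the EpCAM+ level was. A background level of 2.94 was taken as the highest level of the 27 bacterial control probe sets that stayed below the floor on every array. Where the dimmer level was also at or below 2.94, the fold is given as a lower bound against that level. At the edge of the rule, Zfp296, Gucy1a1 and Dll3 were just inside, the last at 1.004 log2, while Itgb3 at 0.996, Tspan15 and Dusp1 stayed outside. On the lower side Cpz, Bves and Myof were just inside, and Irx1, Id3 and Asb1 just outside.

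Probe sets of one gene, which share the RNA sample and the array, were the only repeat measurement. Of the 355 higher genes, 213 had a single probe set on the array, and 92 had several that were measured. In 88 of these 92 (95.7%) all measured sets were higher, and in 54 (58.7%) all were past 2-fold. Of the 204 lower genes, 81 had several measured sets, all lower in 78 (96.3%) and all past 2-fold in 51 (63.0%). Among all 5328 measured genes with several such sets, all shared a sign in 62.9%. That share is no like comparison, because 84.6% of all measured genes lay within 0.5 log2, where the sign rests on a small difference. Sets below the floor on both arrays were left out, and a set dim on one array was counted only if bright on the other. Those left out went both ways, with 0.38 in a set of Laptm5 and -1.37 in a set of Zeb2, both lower genes. Ifngr2, Scarf2, Fbln1, Ablim1, Acer2, Ppp1r13l and Stx3 had a measured set of the opposite sign. The median SD between sets of a gene was 0.33 log2 for the higher and 0.24 log2 for the lower genes.

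**Figure D3:**
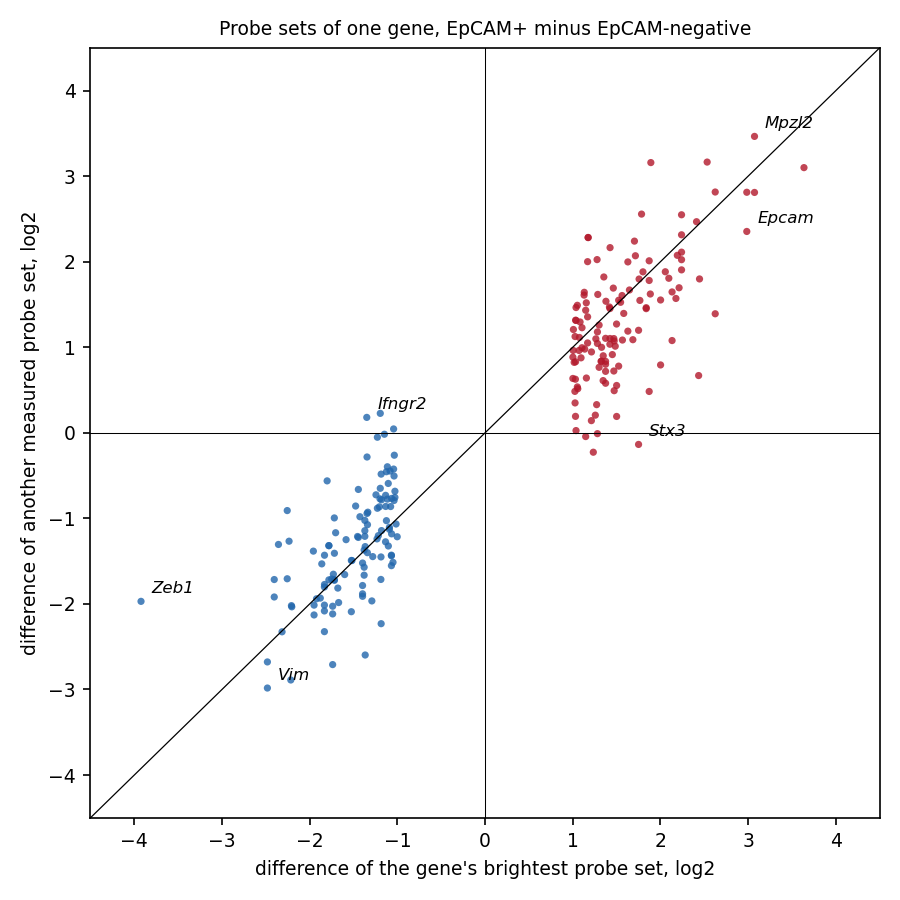
Difference of a gene's brightest probe set (horizontal) and of each of its other measured sets (vertical), EpCAM+ minus EpCAM-negative in log2, for the 173 called genes with several measured sets; red marks higher genes, blue lower genes, and the line is equality. Of 241 such sets 234 have the sign of the brightest set, and Zeb1 lies off the line.

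Rab25, a small GTPase of epithelial membrane recycling, led the higher genes. Its levels were 3.83, 4.02, 4.81 and 8.95 from Oct4-negative to EpCAM+ cells, so that the EpCAM+ fraction alone was high, and the difference in the pair was 17.7-fold. Prom2, a membrane protein of epithelial protrusions, went from 3.45 to 7.09, 12.4-fold, and its second probe set differed by 3.10 log2. Mal2, a protein of transcytosis to the apical surface, went from 2.79 to 6.47, at least 11.5-fold. Tmprss4, a membrane serine protease, went from 4.75 to 8.18, 10.8-fold. In these genes the EpCAM+ level was the highest of the 4, and the other fractions lay below the floor or, for Rab25 and Tmprss4 in EpCAM-negative cells, just above it.

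Among the 25 largest higher genes the EpCAM+ level was the highest of the 4 arrays in all 25, and 18 were below the floor in EpCAM-negative cells. By the rule, only the Oct4-negative and the Oct4+ Klf4-negative levels could have exceeded it. A single measured probe set carried 20 of them. Mpzl2, a junctional adhesion protein of the immunoglobulin family, had 3 measured sets with differences from 2.81 to 3.46 log2. Others were Aldh3b2 (8.86-fold), Ano9 (8.57-fold), Lrrc8e (7.91-fold), a volume-regulated anion channel subunit, and Upk3bl (7.88-fold). Fam3b, Sox8, Macc1, B3gnt3 and Nipal2 differed by 6.42-fold to 7.06-fold. Cers3, a ceramide synthase of the skin barrier, differed by at least 6.45-fold. Ifnlr1, Slc23a3, Fabp6 and Tmem30b lay between 6.13-fold and 6.16-fold.

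Zeb1, a repressor of epithelial genes, led the lower genes. Its levels were 8.63, 7.99, 7.12 and 3.20 in the same order of fractions, a 15.2-fold difference in the pair. The second measured Zeb1 set had 6.90, 6.42, 4.99 and 3.02, which is -1.97 log2, so the sets shared the direction and differed in size. Zeb2, its paralogue, had 6.21, 8.13, 5.24 and 2.25, at least 4.93-fold lower in the pair. The other 4 Zeb2 sets were below the floor in the pair, and their differences ran from -1.37 to -0.36. With all sets of a gene averaged, Zeb1 gave -1.61 and Zeb2 -1.31, with levels below the floor, which ends both calls. For both genes EpCAM+ cells had the lowest of the 4 levels.

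Vim, the intermediate filament protein of mesenchymal cells, had 12.15, 12.06, 11.50 and 9.02, 5.59-fold lower in the pair. Its 3 probe sets gave differences from -2.98 to -2.48. Unlike Zeb1, Vim remained far above the floor in EpCAM+ cells. Efemp1, a fibulin of the extracellular matrix, had 9.48, 9.65, 6.89 and 3.77, 8.67-fold lower. Grem1, a secreted BMP antagonist, had 7.05, 7.61, 6.34 and 3.62, 6.59-fold lower. In these genes the level was already lower in EpCAM-negative Klf4+ cells than in the Oct4-negative and the Oct4+ Klf4-negative fractions, and lower again in EpCAM+ cells.

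Of the 25 largest lower genes, 17 had their lowest level in EpCAM+ cells, and 7 had their highest level in EpCAM-negative cells. Ncam1, a neural and mesenchymal adhesion molecule, was 5.29-fold lower with 3 sets from -2.40 to -1.72. The brightest Ncam1 set designed to a single transcript gave only -0.37. Npr2, Prss23, Igdcc4, Mmd and Lpar4 were 4.62-fold to 5.04-fold lower. Prss23 at -0.91 and Igdcc4 at -1.57, the latter below the floor, did not meet the rule in the brightest set designed to a single transcript. Scg5, a secretory-granule protein, was 5.72-fold lower, and Ntrk3, a neurotrophin receptor, 5.12-fold lower. Ghr, the growth hormone receptor, was at least 3.97-fold lower, Clstn2 at least 3.19-fold and Sspn, of the dystrophin complex, at least 3.03-fold.

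**Figure D4:**
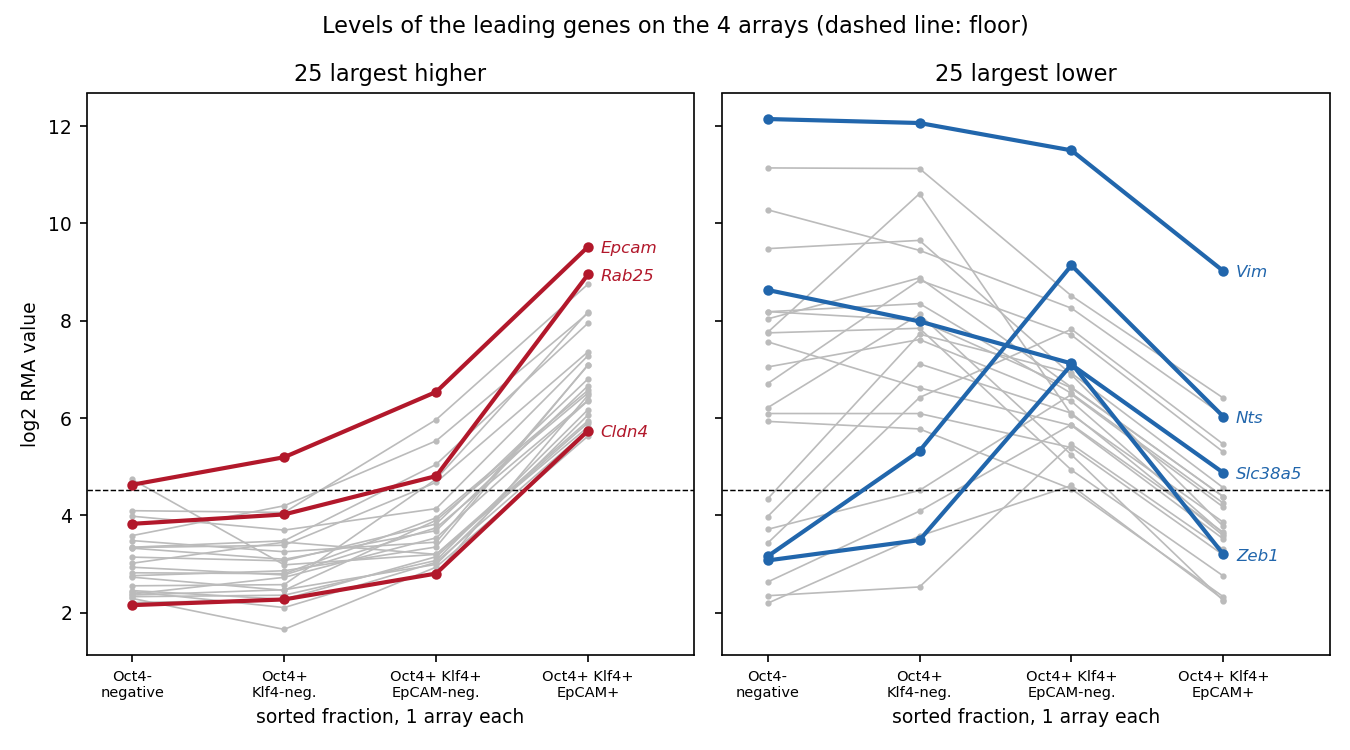
Levels of the 25 largest higher genes (left) and the 25 largest lower genes (right) on the 4 arrays, as log2 RMA values, 1 array per fraction; coloured lines are named and the dashed line is the floor of 4.53. Every higher gene peaks in EpCAM+ cells. Among the lower genes some start high, such as Vim and Zeb1, and some peak in EpCAM-negative cells, such as Nts and Slc38a5. Others, such as Scg5 and Ntrk3, peak in Oct4+ Klf4-negative cells.

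The gene lists are described next, in order from the stained protein outwards, each by its measured members, its calls and its median beside the all-gene median of 0.001. The calls of every list stand beside 3.28% higher and 1.88% lower over all measured genes. Of Epcam and the genes of proteins known to bind or process it, 16 of 19 on the array were measured. Of these, 5 were higher and 1 lower, with a median of 0.29. Epcam, the gene of the sort marker, is itself 1 of the 5 higher. Cldn7, which binds EpCAM directly, had 2.76, 2.86, 3.35 and 7.10, 13.4-fold higher in the pair and below the floor everywhere else. Spint1, a membrane inhibitor of matriptase, had 4.49, 4.76, 6.01 and 8.04, 4.10-fold higher. St14, the protease matriptase itself, had 6.95, 6.55, 8.25 and 9.73, 2.79-fold higher. The sheddases Adam10 and Adam17, which cut EpCAM, differed by -0.38 and 0.15, and the tetraspanin partner Cd9 by 0.39. Cd44 differed by -0.25.

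Claudins and other tight-junction proteins, which seal the space between epithelial cells, had 17 of 30 members measured, 6 higher and 2 lower, with a median of 0.82. Over all 30, floor or not, the median was 0.37. Cldn4 had 2.16, 2.27, 2.80 and 5.74, at least 6.96-fold higher, so it reached the floor in the EpCAM+ fraction only. Marveld3 (5.09-fold), Lsr (3.41-fold), Ocln (3.28-fold, 2 sets of 1.71 and 2.07 log2) and Tjp3 (2.85-fold) were higher too. Cldn3 stood at 7.64 and 8.61, a difference of 0.97, just short of the rule, with 4 sets from 0.63 to 1.21. Cldn1 went the other way, with 2.89, 5.70, 6.58 and 5.40, 2.28-fold lower in the pair and lower in both its sets. Jam3, an adhesion protein also of fibroblasts, was 2.07-fold lower, and Tjp1, the scaffold ZO-1, differed by -0.24.

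The classical cadherins of the adherens junction went opposite ways. Cdh1, E-cadherin, had 3.39, 4.40, 7.65 and 9.66, 4.04-fold higher in EpCAM+ cells. Cdh2, N-cadherin, had 8.62, 8.39, 6.41 and 4.49, 3.79-fold lower, and its 2 sets gave -1.94 and -1.92. The Cdh1 transcript was thus already well above the floor in the EpCAM-negative fraction, whereas Cdh2 ended just below it in the EpCAM+ fraction. All 16 members of this list were measured, 4 higher and 2 lower, with a median of 0.22. Nectin4 was 5.32-fold, Jup (plakoglobin) 2.49-fold and Nectin2 2.19-fold higher, and Cdh13, a cadherin without a cytoplasmic tail, was 2.88-fold lower. The catenins of the classical cadherins differed little, with 0.24 for Ctnna1, -0.04 for Ctnnb1 and -0.08 for Ctnnd1.

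Desmosomes tie keratin filaments of neighbouring cells together. The joint list of desmosome and hemidesmosome genes had 9 of 16 measured members higher and 0 lower, with a median of 1.25. Over the 20 members on the array the median was 0.74. Dsg2, a desmosomal cadherin, had 3.59, 3.82, 5.33 and 7.57, 4.72-fold higher, and all 6 of its measured sets were higher, from 1.90 to 2.55 log2. Its partner cadherins Dsc3 and Dsc2 were 4.52-fold and 3.69-fold higher with 2 sets each. The plakophilins Pkp3 (5.22-fold) and Pkp1 (2.29-fold) and the cornified-envelope plakins Evpl (3.59-fold) and Ppl (3.57-fold) were higher. Pkp2 had 7.81, 8.46, 5.79 and 7.42, 3.09-fold higher in the pair, with its lowest level in EpCAM-negative cells. Dsp, desmoplakin, stood at 9.95 and 10.78 in the pair, a difference of 0.83, short of the rule. Hemidesmosome genes differed less, with 0.25 for Itgb4, 0.10 for Itga6, 0.46 for Lama3, 0.14 for Plec and -0.45 for Dst. None of these passed the rule, so all 9 higher members are desmosome genes.

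All 5 measured keratins of simple epithelia were higher, with a median of 1.84. Krt8 had 5.53, 5.94, 9.50 and 11.34, 3.57-fold higher, with 3 sets from 1.45 to 1.84 log2. Krt18, its filament partner, had 6.99, 5.10, 5.11 and 7.11, 3.98-fold higher. The partners therefore differed in course: Krt8 was high in both Klf4+ fractions, while Krt18 in EpCAM-negative cells was as low as in Klf4-negative cells and in EpCAM+ cells close to its Oct4-negative value. Krt19 was 2.71-fold, Krt20 4.49-fold and Krt7 2.05-fold higher.

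Genes of stratified epithelium and keratinocytes had 14 of 20 measured members higher and 0 lower, with a median of 1.75, and 1.44 over all 26 on the array. Krt17 had 3.35, 3.48, 5.05 and 7.95, 7.48-fold higher. Krt14, of basal keratinocytes, had 4.06, 3.96, 7.05 and 8.85, 3.48-fold higher with 2 sets. Krt6a (5.78-fold), Krt6b (4.89-fold) and Krt16 (4.74-fold), keratins of wounded skin, were also higher, and so were Krt1 (4.35-fold), of differentiating layers, and the cornified-envelope genes Tgm1 (4.44-fold), Sprr1a (4.69-fold) and Cnfn (3.23-fold). Keratin paralogues can share probe sequence, so the split among them is uncertain. Krt5, the partner of Krt14, stood at 4.62 and 4.91, and Ivl, involucrin, at 4.59 and 4.39. Of the list's defining members, Trp63, Krt15, Col17a1, Lor, Sprr1b and Ly6d did not reach the floor in the pair. The median level of the 20 measured members was 4.42, 4.56, 6.06 and 8.10 across the 4 fractions. The part that keratinocyte-like cells may have in these differences was not tested.

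Transcription, splicing and trafficking factors that set up epithelium had 10 of 14 measured members higher and 0 lower, with a median of 1.79, and 0.74 over all 21 on the array. Grhl2, a grainyhead-like activator of junction genes, had 3.58, 4.20, 5.53 and 8.16, 6.17-fold higher, with 3 sets from 1.39 to 2.81 log2. Esrp1, the epithelial splicing regulator, had 4.10, 4.06, 5.97 and 8.75, 6.90-fold higher. Ovol1, a zinc-finger repressor of mesenchymal genes, had 3.71, 3.49, 4.34 and 6.44, 4.27-fold higher, and its second set was 1.81 log2 higher. Each of these lay lower in all 3 other fractions than in EpCAM+ cells. Ap1m2 (5.23-fold), the epithelial clathrin adaptor subunit, Elf5 (4.41-fold), Elf3 (3.83-fold), Grhl3 (3.14-fold), Grhl1 (2.97-fold) and Tfap2c (2.87-fold) were higher as well. Esrp2 stood at 8.31 and 8.33 in its brightest set, while its other measured set was 1.39 log2 higher. Klf5 differed by 0.34 and Tfap2a by 0.10.

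Among polarity and apical genes, 8 of 24 measured were higher and 0 lower, with a median of 0.38. Crb3, the crumbs protein of the apical membrane, had 3.88, 4.34, 7.40 and 9.40, 4.00-fold higher in its brightest set and 0.79 log2 higher in its lowest. Cdcp1 was 5.52-fold, Llgl2 2.68-fold, Pard6b 2.60-fold and Patj 2.04-fold higher. Stx3, an apical syntaxin, was 3.36-fold higher in the brightest set but had a measured set at -0.14. The kinase of the polarity complex, Prkci, differed by -0.31, and Pard3 by 0.10.

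Mesenchymal regulators and markers had 9 of 20 measured members lower and 0 higher, with a median of -0.79, and -0.19 over all 32 on the array. Snai2, a zinc-finger repressor of Cdh1, had 8.70, 7.91, 8.04 and 6.31, 3.32-fold lower, with 2 sets of -1.73 and -1.65. Twist1, a bHLH regulator of mesoderm, had 8.48, 7.56, 6.47 and 5.10, 2.57-fold lower. Axl, a receptor kinase of mesenchymal cells, was 2.54-fold and Foxd1 2.37-fold lower. Snai2 thus differed little between Klf4-negative and EpCAM-negative Klf4+ cells, while Twist1 was lower at both. Twist2 differed by -0.26, Prrx1 by -0.67 and Tcf4 by -0.59, short of the rule. Of the 20 measured members, 16 had a difference below 0 and 4 above it. Those 4, also short of the rule, were Itgb3 at 0.996, Foxc2 at 0.68, Foxc1 at 0.26 and Runx1 at 0.21. Snai1 did not reach the floor in the pair.

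Matrix genes of fibroblasts had 18 of 41 measured members lower and 0 higher, with a median of -0.90, and -0.45 over all 60 on the array. Col3a1, a fibrillar collagen, had 11.14, 11.13, 8.51 and 6.41, 4.29-fold lower, although its brightest set of a single transcript gave -1.73 with levels below the floor. Col5a2, which helps to set fibril width, had 10.28, 9.45, 8.26 and 6.05, 4.61-fold lower with 2 sets. Postn, periostin, had 7.76, 10.61, 6.07 and 3.86, 4.64-fold lower. Lox (3.68-fold), Vcan (3.34-fold, 4 sets), Mmp2 (3.29-fold), Sparc (3.20-fold) and Thy1 (2.41-fold) were lower too. The members did not move as one: Dcn, decorin, stood at 10.97 and 10.98, Timp1 at 9.88 and 9.63 and S100a4 at 10.35 and 10.21. Col1a1 and Col1a2, at 6.15 and 6.11 in EpCAM-negative cells, differed by -0.89 and -0.78. Fbln1 was 2.06-fold lower in its brightest set and 0.05 higher in another.

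**Figure D5:**
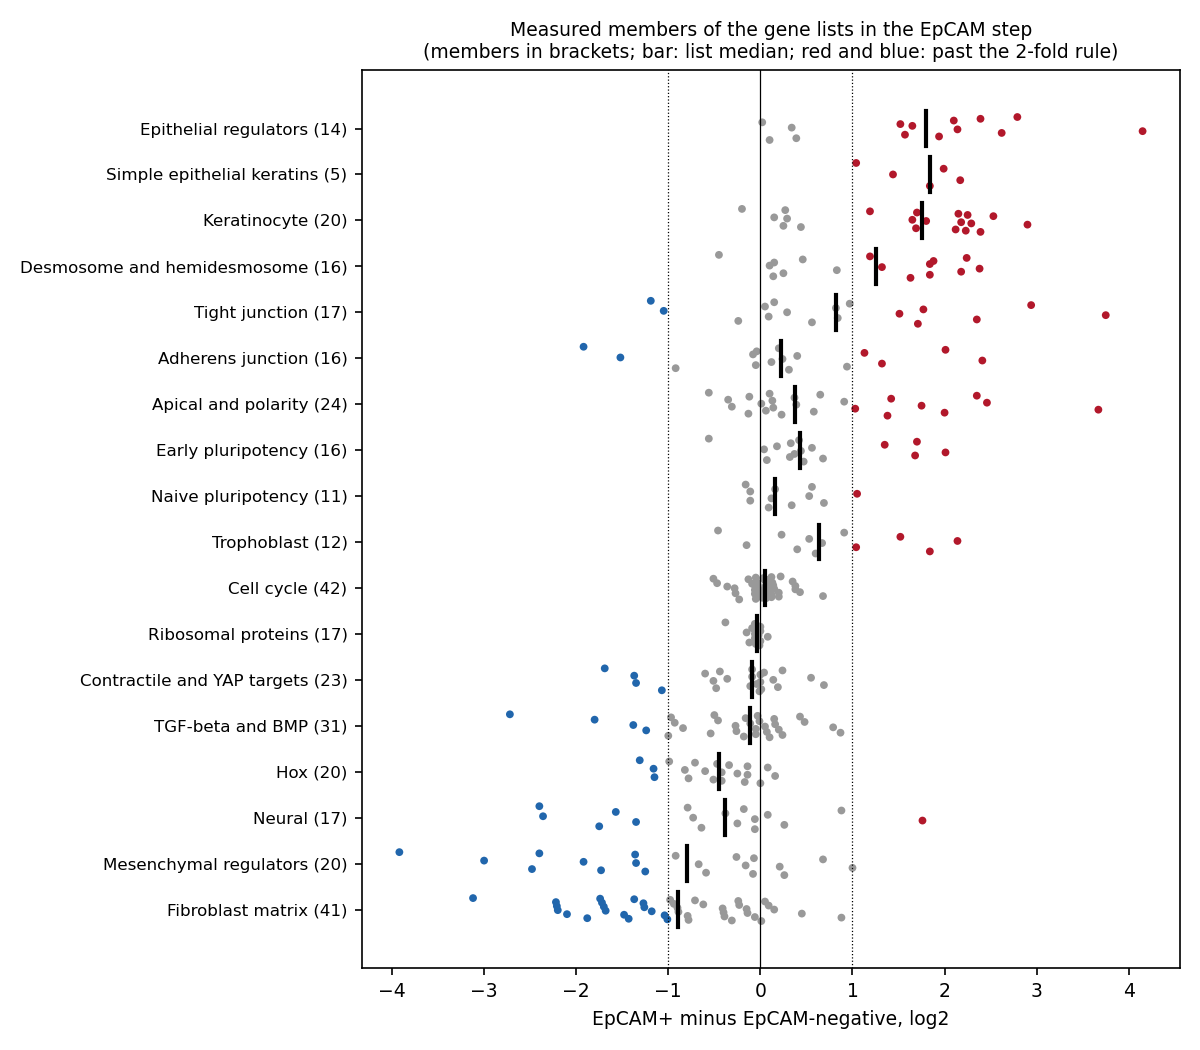
Difference of every measured member of 18 gene lists, EpCAM+ minus EpCAM-negative in log2, 1 array a side; each point is a gene, the black bar is the list median, and red and blue points are past the 2-fold rule. Epithelial regulators and keratins lie to the right with medians of 1.79 and 1.84, cell-cycle and ribosomal genes cluster at 0, and fibroblast matrix and mesenchymal regulators lie to the left at -0.90 and -0.79.

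Signalling genes held fewer differences than the matrix and mesenchymal lists. Over all measured genes 3.28% were higher and 1.88% lower. In the TGF-beta and BMP list, 4 of 31 measured members (12.9%) were lower and 0 higher, with a median of -0.11. Beside Grem1 these were Ltbp1 (3.48-fold), which holds latent TGF-beta in the matrix, Fstl1 (2.60-fold) and Tgfbi (2.37-fold), all secreted or matrix proteins. The receptors Tgfbr2 and Bmpr1a differed by 0.05 and -0.05, and the nuclear mediator Smad3 by 0.15. Among contractile genes and YAP targets, 4 of 23 (17.4%) were lower, with a median of -0.09: Cav1 (3.22-fold), Ccn1 (2.59-fold, 4 sets), Axl and Acta2 (2.10-fold). Tagln, a smooth-muscle actin-binding protein, differed by 0.14.

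Of 20 measured Wnt genes, 1 was higher (5.0%) and 2 lower (10.0%), with a median of -0.01. The higher gene was the secreted antagonist Wif1 (at least 3.60-fold), and the lower genes were the repressor Tcf7l1 (2.37-fold) and the receptor Fzd2 (2.04-fold). Of 22 FGF and EGF genes, 3 were higher (13.6%, beside 3.28% over all measured genes). These were the receptor Erbb3, which had 4.63, 5.27, 8.43 and 9.86, the EGF receptor inhibitor Errfi1 (2.02-fold) and the FGF carrier Fgfbp1 (2.01-fold).

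Of 16 measured early genes 4 were higher and 0 lower, with a median of 0.43, and Cdh1 is one of the 4. Lin28a, an RNA-binding protein of early embryonic cells, had 2.95, 2.62, 5.11 and 6.81, 3.26-fold higher with 2 sets. Sall4, a zinc-finger factor of the pluripotency network, had 3.11, 3.53, 7.18 and 8.53, 2.54-fold higher. Dnmt3b, a de novo DNA methyltransferase, had 5.26, 6.19, 5.91 and 7.59, 3.22-fold higher. Sall4 was thus well above the floor in both Klf4+ fractions, and Dnmt3b was highest in EpCAM+ cells. Lin28a in EpCAM-negative cells was only just above the floor in its brighter set and below it in the other. In EpCAM+ cells both Lin28a sets were above the floor. Of the naive list, 11 of 28 on the array were measured and 1 was higher, Socs3 (2.07-fold), a feedback inhibitor of LIF signalling. Esrrb, Zfp42, Klf2 and Dppa3 did not reach the floor. Nr0b1 had 2.41, 2.69, 6.29 and 6.17, and in the pair Tet2 stood at 9.30 and 9.86 and Zfp57 at 7.66 and 7.55. Of the primed and gastrulation list 3 of 19 were measured and none passed the rule.

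Trophoblast genes had 4 of 12 measured members higher, with a median of 0.64. Those 4, Elf5, Krt8, Tfap2c and Krt7, are all genes of other epithelia too and were counted above. Cdx2, Eomes, Esx1, Tpbpa and Plac1 did not reach the floor. Other regulators of the list did, short of the rule: Hand1 stood at 7.68 and 8.21 and Tead4 at 8.18 and 8.77. Ascl2 stood at 5.93 and 6.60 and Gata2 at 5.33 and 6.23. Primitive-endoderm genes had 2 of 9 lower, Sparc and Col4a2 (2.60-fold), both matrix proteins, and their regulators Gata4, Gata6, Sox7 and Sox17 were below the floor.

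Of 42 measured cell-cycle genes none passed the rule, which is near the low shares of 3.28% and 1.88% over all measured genes. Their median was 0.05, and differences ran from -0.51 to 0.68. Mki67 stood at 10.81 and 10.75. None of 27 oxidative phosphorylation genes and none of 28 lipid and sterol genes passed it, with medians of -0.11 and 0.12. Of 26 glycolysis genes 1 was higher, Pfkfb4 (2.50-fold), a regulator of fructose-2,6-bisphosphate. Of 37 chromatin genes only Dnmt3b passed. In the p53 list Plk3 (2.08-fold) was higher and Fas (2.06-fold) lower, and Cdkn1a stood at 10.54 and 10.51. Of 14 interferon and antigen-presentation genes none passed the rule, with H2-K1 at 8.77 and 9.61 in its brightest set and 1.20 log2 apart in another.

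Genes of other cell types were few. Of the endothelial list 6 of 18 were measured and none passed the rule, and Pecam1, Cdh5, Kdr and Tie1 were below the floor. Cldn5, also of that list, had 3.21, 3.59, 6.81 and 7.37. Of the leukocyte list 5 of 21 were measured with 1 lower, and Ptprc, Csf1r and Itgam were below the floor. The lower one, Laptm5, had 3.81, 4.69, 9.50 and 8.38, which is high in both Klf4+ fractions. Of 5 measured muscle genes 1 was higher, Myl4 (2.29-fold), and of 3 adipocyte genes 1, Dgat2 (2.20-fold). Of 3 erythroid genes 1 was lower, the embryonic globin Hbb-y, at 8.95 and 7.86 in the pair and below the floor in the other fractions, with 3 sets from -1.13 to -1.09. Of 2 measured cartilage and bone genes none passed the rule. Medians of the muscle, adipocyte, erythroid and cartilage lists were 0.09, 0.79, 0.02 and -0.14. The part that such cells may have in the pair was not tested.

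The neural list had 17 of 30 members measured, 5 lower (29.4%, beside 1.88% over all measured genes) and 1 higher (5.88%, beside 3.28%). Its median was -0.38, and -0.13 over all 30 on the array. Fabp7, a lipid carrier of radial glia, had 3.43, 6.42, 7.83 and 5.46, 5.15-fold lower, and Nrcam, an axonal adhesion molecule, had 2.66, 7.51, 7.58 and 5.83, 3.36-fold lower. Gap43, a growth-cone protein, was 2.56-fold and Cbln2 2.96-fold lower. Fabp7 and Nrcam were below the floor in Oct4-negative cells and well above it in the Oct4+ Klf4-negative and the EpCAM-negative fractions. Snap25, of the synaptic release machinery, had 2.10, 2.35, 3.27 and 5.04, 3.40-fold higher. Of the same list Dcx, Sox2, Pax6 and Neurog2 were below the floor, while Sox1 had 2.90, 5.05, 9.10 and 9.03. Of 20 measured Hox genes 3 were lower (15.0%, beside 1.88% over all measured genes) and 18 had a difference below 0. Their median was -0.45, and -0.27 over all 33 on the array. Hoxc8 was 2.48-fold, Hoxb6 2.24-fold and Hoxb5 2.22-fold lower, and each had its highest level in Oct4+ Klf4-negative cells, from 6.37 to 6.71.

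Imprinted genes had 3 higher (17.6%, beside 3.28% over all measured genes) and 1 lower (5.88%, beside 1.88%) of 17, with a median of 0.01. Igf2, a fetal growth factor, had 10.39, 8.14, 7.76 and 9.63, 3.66-fold higher with 2 sets. Its level in EpCAM+ cells was thus below that of Oct4-negative cells and above those of the other fractions. Phlda2 was 2.58-fold and Slc22a18 2.03-fold higher, and these are neighbours in the genome. Ndn, necdin, was 2.63-fold lower in 5 sets from -1.91 to -1.40.

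The place of each level among all 4 arrays is given next for both directions. The call fixes part of it: a higher gene cannot have its highest level in EpCAM-negative cells, nor a lower gene its lowest there. The same shares over all measured genes were not computed. Of the 355 higher genes, EpCAM+ cells had the highest of the 4 levels in 328 (92.4%). In 111 (31.3%) the gene was below the floor on the 3 other arrays, so that it counted as measured through the EpCAM+ array only. Their median level was 3.98 in Oct4-negative, 3.94 in Oct4+ Klf4-negative, 5.07 in EpCAM-negative and 6.71 in EpCAM+ cells. In 27 of them (7.61%) a Klf4-negative or Oct4-negative level was as high as in EpCAM+ cells or higher. Icam1, an adhesion molecule for leukocytes, was one, with 7.88, 7.21, 4.05 and 5.99, and Gjb5, a connexin, another, with 6.20, 4.73, 4.14 and 6.02. Both were lowest in the EpCAM-negative fraction.

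Of the 204 lower genes, EpCAM+ cells had the lowest of the 4 levels in 150 (73.5%) and EpCAM-negative cells had the highest in 45 (22.1%). The highest level lay in Oct4-negative cells in 81 (39.7%) and in Oct4+ Klf4-negative cells in 78 (38.2%). The median level of the 204 genes was 6.93, 7.12, 6.23 and 4.67 in the order of fractions. In 33 genes (16.2%) the EpCAM-negative fraction stood at least 2-fold above every other fraction. Nts, the neuropeptide neurotensin, was the first, with 3.16, 5.32, 9.14 and 6.03, 8.63-fold lower in the pair. Slc38a5, a glutamine transporter, had 3.07, 3.49, 7.10 and 4.87, 4.67-fold lower. Gda, guanine deaminase, had 3.71, 4.51, 6.48 and 4.17, 4.98-fold lower, with a second set at -2.33 log2. Lbp, the lipopolysaccharide-binding protein, had 2.35, 2.53, 5.46 and 3.30, 4.48-fold lower, and Igfbp5 had 2.63, 4.09, 5.87 and 3.65, 4.64-fold lower. Each of these 5 genes was below the floor in Oct4-negative cells.

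The step from Oct4-negative to Oct4+ Klf4-negative cells shares no array with the EpCAM step, so calls of both can be set beside each other. By the same rule that step had 410 genes higher (3.81%) and 553 lower (5.14%) of 10758 measured. Of the 355 genes higher in EpCAM+ cells, 7 (1.97%) were also higher at the Oct4 step and 43 (12.1%) were lower there; these are 1.71% of its higher and 7.78% of its lower genes. Of the 204 lower genes, 41 (20.1%) were higher at the Oct4 step and 20 (9.80%) were lower; these are 10.0% of its higher and 3.62% of its lower genes. Postn, Nrcam and Gap43 are among those that were higher with Oct4 and lower with EpCAM. The step from Klf4-negative to Klf4+ EpCAM-negative cells shares an array with the EpCAM step, and its levels are given above beside those of each gene without a further comparison.

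Some higher genes lay side by side in the genome. With the 10532 measured genes that RefSeq places put in order, 64 of 351 higher genes (18.2%) had a higher gene as a neighbour in that order, in 27 runs, beside 611 of the 10181 other measured genes. The longest was a run of 6 kallikreins, Klk13, Klk12, Klk11, Klk10, Klk8 and Klk7, secreted serine proteases of which several act in shedding of the cornified layer. Klk11 had 3.33, 3.13, 5.33 and 7.76, 5.38-fold higher, Klk13 was 4.30-fold and Klk8 2.37-fold higher. Klk5, another member of the family, stood at 4.29 and 4.81, a difference of 0.52. Further runs were Krt19, Krt14, Krt16 and Krt17, the desmosomal cadherins Dsc3, Dsc2 and Dsg2, and Mpzl2, Mpzl3 and Tmprss4. Of the lower genes 20 of 199 (10.1%) stood in 9 runs, beside 372 of the 10333 other measured genes with a lower neighbour, among them Gulp1, Col3a1 and Col5a2, then Acta2, Fas and Lipa, and the pair Grem1 and Scg5. Paralogues in a run can share probe sequence, so members of one family are not independent.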

How the data were processed

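The 4 arrays were deposited as 1 table of log2 RMA values, made by the authors with RMA, as the submitters' processing notes record; its version is not given in these sources. Probe sets were named through GEO's platform annotation and RefSeq symbols: 34945 of 45037 without controls had 1 symbol, 932 several and 9160 none. The brightest probe set on average over the 4 arrays stood for each gene. Differences are EpCAM+ minus EpCAM-negative, 1 array a side, so no p-value, interval or replicate SD is given, and precision is limited by the number of arrays.

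The members and gene lists were chosen with earlier results of these data known. Named genes are the sorted factors, the 25 largest calls a side without uncharacterized genes or measured probe sets of opposite sign, list members, and the genes next to the threshold. Alternatives changed the probe-set choice, the floor, the fold, the array scaling and the need for agreeing probe sets. The comparison E-boxes were added after the values were seen. The code of the calling rule was tested on simulated data. Python 3.11.15, numpy 2.4.6 and pandas 2.3.3 were used.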

Additional observations from a re-analysis of the deposited data

Results flagged for a closer look

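Among the 9160 probe sets without a gene name, which the gene comparison leaves out, 2606 reached the floor in the pair. Of these, 26 were higher in EpCAM+ cells (0.998%) and 45 were lower (1.73%), beside 3.28% and 1.88% of named genes. They stand here because they are signal outside the gene comparison. No gene can be given for them here, and with 1 array a side they have no replicate check.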

How the results depend on the processing

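The counts of 355 higher and 204 lower genes stayed within 1.5 times under 5 of the 9 alternatives: the mean of all probe sets (301 and 138), probe sets of a single transcript (334 and 191), no floor (397 and 229), each array centred on its median (366 and 192) and a running median taken off (341 and 205). They moved by more with a floor raised to the upper quartile (162 and 59), at 3-fold (150 and 75), at 1.5-fold (745 and 560) and where all of several measured probe sets had to share a sign (88 and 78), each of which changes by its construction how many genes can pass. The median of EpCAM and its partners turned to -0.25 over the 9 such genes. Of 171 medians of 19 lists under the alternatives, 136 stayed within the median SD between probe sets and 34 moved by more, 13 of them without a floor, when unmeasured members are counted. None of the 50 leading genes changed direction. With all probe sets averaged, Zeb1 was at -1.61, Zeb2 at -1.31 and Ntrk3 at -1.03, with averaged levels that no longer reached the floor. Among sets of a single transcript, Ncam1 was at -0.37, Clstn2 at -0.79 and Prss23 at -0.91. A brighter floor took 30 of the 50 out. No paired analysis was possible because each group has 1 array and the labels carry no replicate numbers.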

Other observations

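The epidermal barrier lipoxygenases, neighbours in the genome, were higher together in EpCAM+ cells. Alox12b had 2.87, 4.86, 7.92 and 10.25 from Oct4-negative to EpCAM+ cells, 5.01-fold higher in the pair, and Aloxe3 had 4.02, 3.78, 4.62 and 6.37, 3.37-fold higher. With Cers3 they belong to the synthesis of the ceramides of the cornified layer. Sbsn and Dmkn, secreted proteins of the epidermis that also lie side by side, were 2.46-fold and 3.34-fold higher. These genes were picked after their values were seen, and the difference has no replicate check.

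Amino acid transport and stress genes had 3 of 28 measured members higher (10.7%, beside 3.28% over all measured genes) and 0 lower, with a median of 0.11. Trib3, a pseudokinase of the ATF4 response, was 2.40-fold higher with 2 sets, Slc7a3, a cationic amino acid carrier, had 3.89, 4.83, 8.30 and 9.34, and Cebpb was 2.32-fold higher in its brightest set and 0.14 log2 in another. Immediate early genes had 2 of 24 higher (8.33%), Hspa1a and Dusp2, and 1 lower (4.17%, beside 1.88% over all measured genes), Fos, with a median of 0.42. Of the transport genes of epithelia 2 of 11 were higher (18.2%), with a median of 0.48. These were the potassium channel Kcnk1 (4.57-fold, 2 sets) and the sodium channel subunit Scnn1g (2.75-fold).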
